A study of Mus musculus with 2 samples.

Results

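The storage of triglyceride in lipid droplets was examined at the level of mRNA in cultured primary hepatocytes of mice with and without *Drp1*, through 10 genes of the lipid droplet and of lipolysis (*Plin2*, *Plin4*, *Plin5*, *Cidea*, *Cideb*, *Cidec*, *Pnpla2*, *Lipe*, *Cd36* and *Dgat2*). The genes were chosen by name, and every probe that carries 1 of these names on a mouse array of 60-base probes was taken, which gave 15 probes for the 10 genes among 37074 gene names on the array. *Drp1*LiKO mice carried *Alb-Cre* (Tg/+) on *Drp1*flox/flox, and control mice, labelled as wild type, were *Drp1*flox/flox littermates without the transgene by the study's methods, so that floxed alleles were present in both groups. Both are given as C57BL/6. The albumin promoter directs Cre to hepatocytes, and other liver cells carried over into a culture would keep the gene. Hepatocytes were obtained by collagenase perfusion, received new medium 4 h after seeding and were harvested without further treatment at 24 h. The age and number of the mice behind each RNA sample are not given in the sources used here. Each genotype was measured on 1 array, with no replicate, and both arrays were on the same slide. No test between genotypes was therefore possible, and each value describes these 2 arrays.

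Lipid droplets hold triglyceride and cholesteryl ester in a core that a single layer of phospholipid and a coat of proteins surround. Perilipins (PLIN) cover the droplet and control the access of lipases, and CIDE proteins sit where droplets touch and let lipid pass from the smaller to the larger one. Adipose triglyceride lipase, encoded by *Pnpla2*, removes the first fatty acid of triglyceride and hormone-sensitive lipase, encoded by *Lipe*, acts mainly on diglyceride. CD36 takes up fatty acids at the cell surface, and DGAT2 adds the last fatty acid in triglyceride synthesis. In the liver, *Cidea* and *Cidec* are known for their rise in steatosis.

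The probes read short stretches of the transcripts, and the first 30 bases of those of *Cd36*, *Plin4* and *Cidec*, and of the pairs of probes for *Plin2* and *Cideb*, are shown because the ratios below rest on them. They are written 5′ to 3′ in the sense of the transcript, with the position of the probe in its transcript as the array files give it.
*Cd36*, NM_007643, position 2390: aagaatgaaaaatgaacaattcacatgtga
*Plin4*, NM_020568, position 5654: cagcctgtgggtatgagacctgccctgaat
*Cidec*, NM_178373, position 1579: tgcctgaatggacacagttcctgttctcct
*Plin2*, NM_007408, position 1449: ctggccagatgaccccttttgctgtattga
*Plin2*, NM_007408, position 91: ctcgtccctcagctctcctgttaggcgtct
*Cideb*, NM_009894, position 1063: ggtttttactgacgcctacccctaagatcc
*Cideb*, NM_009894, position 52: ttatacaaaaaagcaagaacaacagagaag

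Signals are intensities corrected for background by the scanner software, and ratios are log2 values of *Drp1*LiKO minus control after the 75th percentile of each array (313 in control and 356 in *Drp1*LiKO) was subtracted. Of 56600 transcript probes, 48.2% on the control array and 52.1% on the other stood well above background, and 20165 genes were compared through their brightest probe. A gene was called when its Z score, the distance of its ratio from the mean of all compared probes in units of their SD, was at least 2 or at most -2, which here corresponded to 2.46-fold higher or 2.48-fold lower. The technical error given with a ratio (± SD) comes from the 5 repeatedly printed probes nearest in signal, and it covers spots within these arrays but not cultures or mice. *Dnm1l*, the gene of DRP1, fell from 2602 to 1217 at its brightest probe, a log2 ratio of -1.28 ± 0.11 with a Z score of -1.95. Its other probe was close to background and went from 22.8 to 20.9 (-0.31 ± 0.37). The sources used here do not say whether either probe lies in the deleted part of the gene. All 18 hepatocyte markers were well above background on both arrays, none passed the Z score threshold, and *Alb* had a log2 ratio of 0.10.

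**Figure D1:**
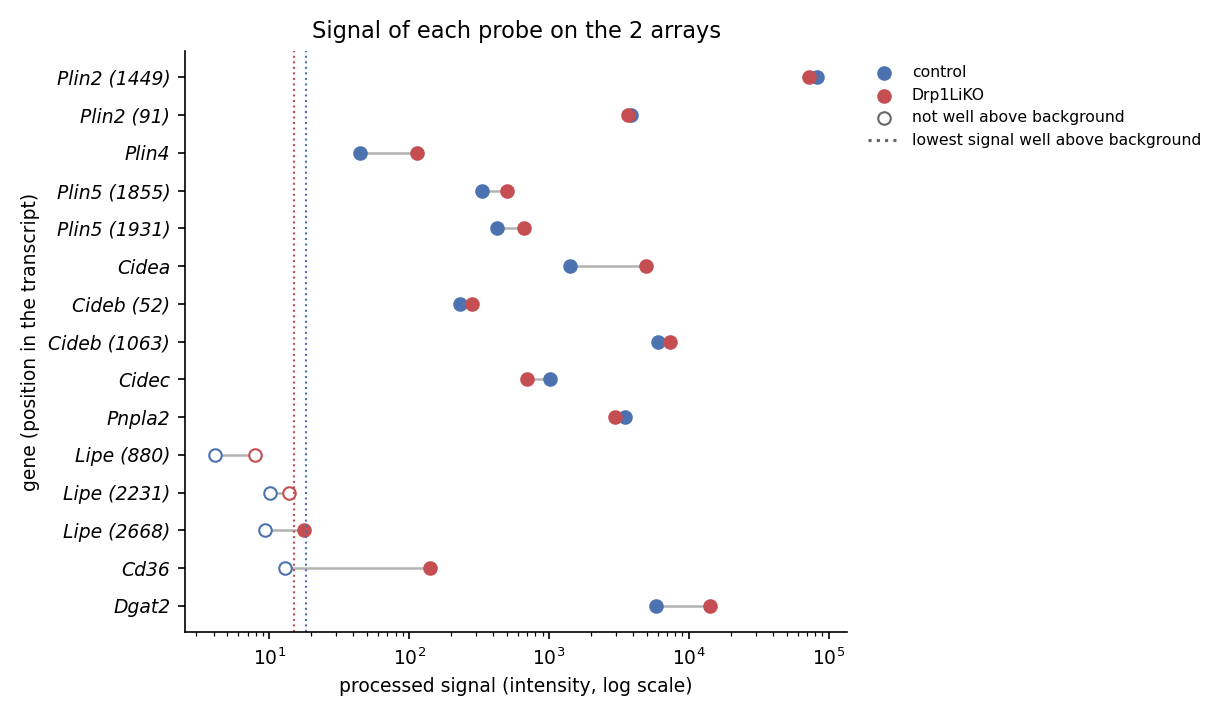
Processed signal (intensity, log scale) of each probe of the 10 genes, named by gene and, where a gene has several probes, by position in the transcript, with blue points for the control array and red points for the *Drp1*LiKO array. Open points were not well above background, and the dotted lines mark the lowest signal well above background on each array (18.2 in control and 15.0 in *Drp1*LiKO). *Cidea*, *Plin4*, *Dgat2* and *Cd36* lie apart on the 2 arrays, whereas the points of *Plin2*, *Cideb* and *Pnpla2* lie close together.

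Of the 10 genes, *Cidea* and *Cd36* passed the Z score threshold with higher values in *Drp1*LiKO, against 3.5% of all genes compared, and none passed it with lower values, against 2.81% of all genes. *Cd36* entered the comparison through the *Drp1*LiKO array alone, and of the members well above background on both arrays only *Cidea* passed. The members were chosen with earlier results of these data known, so the counts given here are description only. *Cidea*, *Cd36*, *Plin4* and *Dgat2* were at least 2-fold higher, as were 5.32% of all genes, and none of the 10 was at least 2-fold lower, as were 4.59% of all genes. A total of 8 members were well above background on both arrays, and 5 of these were higher and 3 lower in *Drp1*LiKO, with a median log2 ratio of 0.27. Over all 20165 genes, a set that unlike these 8 members includes 2430 bounds, the median was -0.05, with 8981 higher and 11184 lower. The genes of the droplet therefore did not move as a block, and members of the same protein family had ratios of opposite sign.

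**Figure D2:**
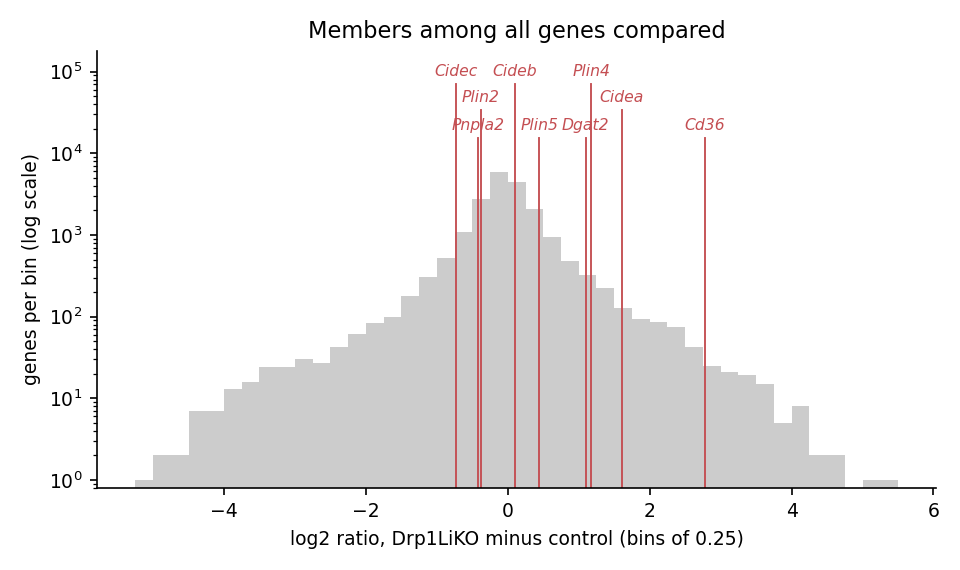
Histogram of the log2 ratio of *Drp1*LiKO minus control over the 20165 genes compared, in bins of 0.25, with the number of genes on a log scale. Red lines mark 9 of the 10 genes, and *Lipe*, which has no ratio, is left out. *Cd36*, drawn at its lower bound, and *Cidea* lie in the upper tail, and *Cidec* is the lowest of the 9.

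The perilipins differed among themselves. *Plin2*, the perilipin that coats most droplets of hepatocytes, went from 82614 on the control array to 72211 on the *Drp1*LiKO array at its brighter probe, a log2 ratio of -0.38 ± 0.06 and a Z score of -0.57. The other *Plin2* probe went from 3841 to 3688, a log2 ratio of -0.24 ± 0.09. Both probes were thus slightly lower in *Drp1*LiKO and far from the Z score threshold. The size of this difference depended on the normalization: in the authors' deposited normalized values the log2 ratios of these probes were -0.07 and -0.48.

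*Plin4*, a perilipin best known from adipocytes and muscle, rose from a dim 44.6 in control to 115 in *Drp1*LiKO, 2.26-fold higher (log2 ratio 1.18 ± 0.23). Its Z score of 1.82 stayed short of the threshold, and 4.10% of all genes had a higher ratio, with bounds counted at their value here and below. With another background correction that adds an offset to dim signals (normexp), the log2 ratio of *Plin4* was 0.58. *Plin5*, which links droplets to mitochondria in tissues that oxidize fat, was read by 2 probes with signals of 426 and 334 in control and 659 and 504 in *Drp1*LiKO. The log2 ratios of these probes, 0.45 ± 0.11 and 0.41 ± 0.11, differed by less than their technical error. Their Z scores did not reach the threshold. Set against *Plin2*, the log2 ratio of *Plin4* was 1.56 ± 0.24 higher and that of *Plin5* was 0.82 ± 0.12 higher, differences that do not depend on how the arrays were scaled to each other by a constant. Under the other ways of processing these differences ranged from 0.94 to 1.56 and from 0.35 to 0.82.

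The CIDE genes differed in direction. *Cidea*, which in mice is typical of brown fat and little expressed in lean liver, rose from 1424 to 4909 in *Drp1*LiKO, 3.04-fold higher (log2 ratio 1.60 ± 0.11, Z score 2.47), and 2.33% of all genes had a higher ratio. With no floor for dim signals the same ratio had a Z score of 1.74. *Cideb*, the member of the family with a role in the lipidation of very-low-density lipoprotein, went from 6023 to 7340 at 1 probe and from 232 to 283 at the other. Both *Cideb* probes had a log2 ratio of 0.10, with technical errors of 0.09 and 0.13, so that the difference was about as large as the error. *Cidec*, which drives the growth of large droplets, went the other way, from 1017 to 693, 1.66-fold lower (-0.74 ± 0.11, Z score -1.11), and 7.43% of all genes had a lower ratio. The log2 ratio of *Cidea* exceeded that of *Cidec* by 2.34 ± 0.16, or 5.06-fold. It exceeded that of *Cideb* by 1.50 ± 0.15, and *Cideb* exceeded *Cidec* by 0.84 ± 0.14. Most of the 12 other ways of processing leave these ratios unchanged or shift them together, so they could not change the order *Cidea*, *Cideb*, *Cidec*. Among those that could, the log2 ratios in this order were 1.62, 0.11 and -0.72 with quantile normalization and 1.58, 0.13 and -0.66 with normexp. In the deposited values they were 1.51, 0.24 and -0.64, and the median of the probes of a gene also kept the order.

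**Figure D3:**
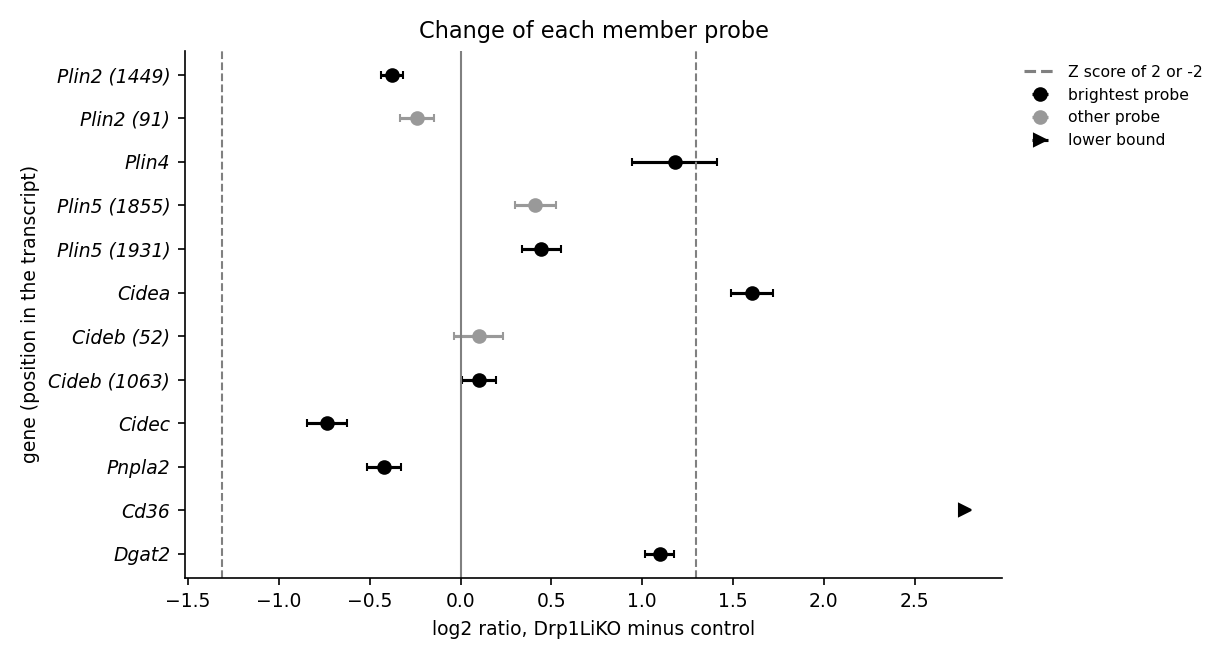
Log2 ratio of *Drp1*LiKO minus control for each probe of 9 genes, named by gene and, where a gene has several probes, by position in the transcript, with error bars of ± 1 technical SD between spots. Black points are the brightest probe of a gene, grey points the other probe, the triangle is the lower bound of *Cd36*, and dashed lines mark Z scores of 2 and -2. *Cidea* and *Cd36* lie past the upper line, and the probes of *Plin2*, *Plin5* and *Cideb* lie beside each other.

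Of the enzymes, *Dgat2* was bright on both arrays, with 5793 in control and 14064 in *Drp1*LiKO. It was 2.14-fold higher (log2 ratio 1.10 ± 0.08), and 4.63% of all genes had a higher ratio. Its Z score of 1.69 was short of the threshold. *Dgat2* passed it under 5 of the 12 other ways of processing, for which the share of all genes past the threshold is not given here. Apart from normexp, these left its ratio unchanged and altered only the Z score. *Pnpla2* went from 3510 to 2975, a log2 ratio of -0.42 ± 0.09 with a Z score of -0.63. The 2 enzymes, which build and break down the same lipid, thus differed by 1.52 ± 0.12 on the log2 scale, with *Dgat2* the higher.

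*Lipe* was at or near background. At 2 of its 3 probes it was not well above background on either array, with signals of 4.10 and 10.1 in control and 7.86 and 13.8 in *Drp1*LiKO. The third probe had 9.29 in control and 17.8 in *Drp1*LiKO, and only the latter was well above background. As 17.8 lies below the 18.2 needed on the control array, no ratio is given for *Lipe*.

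*Cd36* was not well above background in control, with a signal of 12.9, and reached 142 in *Drp1*LiKO. Against the lowest measurable signal of the control array, *Cd36* was at least 6.85-fold higher in *Drp1*LiKO (log2 ratio at least 2.78, Z score at least 4.27). It entered the comparison through the *Drp1*LiKO array alone. With the normexp correction the log2 ratio was 1.19, still past the Z score threshold. *Cd36* is also expressed by macrophages and endothelial cells, and markers of these cells were higher on the same array. Of 17 markers of Kupffer cells and macrophages, 12 were measured on both arrays, and 11 of these were higher in *Drp1*LiKO and 10 passed the threshold, with a median log2 ratio of 2.34. Another 3 were measured in *Drp1*LiKO alone, and *Timd4* and *Cd163* were not well above background on either array. The signal summed over the 15 markers was 9276 on the control and 26262 on the *Drp1*LiKO array. Of 12 endothelial markers, 9 were measured on both arrays, all of them higher in *Drp1*LiKO and 5 past the threshold (median 1.44), and the list summed to 4709 and 9979. Of 11 stellate cell markers, 5 were measured on both arrays, all of them higher and 2 past the threshold (median 1.04), 3 were measured in *Drp1*LiKO alone, and *Lrat*, *Hand2* and *Ngfr* on neither. The stellate list summed to 21954 and 30135, most of which was *Acta2* at its brightest probe, with 21437 and 24640 (log2 ratio 0.02). The other *Acta2* probes gave 0.88 and 2.20. Of the stellate markers measured on both arrays, the 2 past the threshold were *Dcn* (log2 ratio 4.06) and *Col1a2* (2.93, with -0.18 at its other probe). Markers of cholangiocytes did not rise in this way. Of 6, 3 were measured on both arrays, 1 of them higher and 0 past the threshold (median -0.40). *Krt7* was measured in *Drp1*LiKO alone, and *Epcam* and *Cftr* on neither. The list summed to 29379 and 24885, most of which was *Spp1*, with 24719 and 20346. In RNA of whole cultures, a change in the number of cells of a type and a change of RNA per cell cannot be told apart. The part of these cells in the *Cd36* result was not tested.

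*Cidea* and *Plin4* are also genes of fat cells. Of 7 adipocyte markers, *Adipoq*, *Retn*, *Cfd* and *Plin1* were not well above background on either array. The signals of the other 3 summed to 184 on the control and 217 on the *Drp1*LiKO array, with a median log2 ratio of 0.12, but they did not move together. *Slc7a10* passed the threshold upward, with signals of 19.0 and 54.5, *Adrb3* was lower, with 63.1 and 37.1 (log2 ratio -0.95), and *Lep* had a log2 ratio of 0.12. Their part in the 2 results was not tested.

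The positions of the probes in the genome were taken from the array files (mm9). The *Cd36* probe lay at chr5:17288600-17288659 and that of *Cidec* at chr6:113374693-113374752, both on the minus strand. Those of *Plin4* and *Plin5* lay 10910 bases apart on chromosome 17, at chr17:56240055-56240114 and, for the brighter *Plin5* probe, chr17:56251025-56251084. In RefSeq these genes are direct neighbours, and both were higher in *Drp1*LiKO.

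Many of these genes are known targets of PPAR nuclear receptors, which bind as partners of RXR to a direct repeat of the hexamer AGGTCA with 1 base between the copies. RefSeq promoter windows of GRCm38.p6, from 250 bases before to 50 after a transcript start, were available for 8 of the 10 genes (11 windows) and were searched for this repeat on both strands. With at most 2 mismatches it occurred in the windows of *Cd36* and *Plin2*, the former with a higher and the latter with a slightly lower signal in *Drp1*LiKO, and in 3.86% of 32851 windows of all genes. The windows of the other 6 genes had 3 mismatches or more. A match is a likeness of letters and no evidence of binding. Both windows are shown because they share the repeat while the genes had ratios of opposite sign, with the match, which is on the opposite strand in both, in capitals. It began 63 bases before the start in *Cd36* and 225 bases before it in *Plin2*.
*Cd36*, chr5:17835847-17836146, minus strand: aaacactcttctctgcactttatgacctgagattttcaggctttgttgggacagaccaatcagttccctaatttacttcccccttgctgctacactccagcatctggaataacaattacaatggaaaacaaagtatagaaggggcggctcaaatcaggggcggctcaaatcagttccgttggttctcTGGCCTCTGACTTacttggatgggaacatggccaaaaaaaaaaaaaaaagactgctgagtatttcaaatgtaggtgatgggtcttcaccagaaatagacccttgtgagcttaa
*Plin2*, chr4:86670010-86670309, minus strand: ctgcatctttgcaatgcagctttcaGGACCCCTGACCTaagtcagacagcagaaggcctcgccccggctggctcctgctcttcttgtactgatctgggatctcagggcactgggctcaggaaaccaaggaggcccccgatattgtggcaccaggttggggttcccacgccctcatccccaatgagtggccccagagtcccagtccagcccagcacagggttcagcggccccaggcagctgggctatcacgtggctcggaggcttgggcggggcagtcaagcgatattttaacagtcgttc

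The signals of the PPAR genes, of *Rxra* and of other regulators were compared in the same way. *Ppard* had a log2 ratio of 0.73, and *Rxra*, the gene of an RXR partner, of 0.27, with 0.47 at its other probe. *Ppara*, the main PPAR of hepatocytes, had a log2 ratio of 0.12 (signals 413 and 508), *Pparg*, which drives fat storage, of 0.69 (1030 and 1887) and *Srebf1*, a regulator of fatty acid synthesis, of 0.11 (5606 and 6852). Of 13 regulators measured, *Ppargc1a*, a coactivator of fat oxidation and gluconeogenesis, was the 1 that passed the threshold. It went from 133 to 489, a log2 ratio of 1.69, and its other probe gave 1.80.

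The remaining genes of the pathway were taken from lists of 84 genes by role, of which 78 were well above background on at least 1 array. Of these, 42 were higher and 36 lower, and their median log2 ratio was 0.08. A total of 6 passed the threshold with higher and 1 with lower values, shares that stand beside the 3.5% and 2.81% of all genes. On the droplet itself, *Hilpda*, an inhibitor of adipose triglyceride lipase that hypoxia and fatty acids induce, went from 2709 to 13579 (log2 ratio 2.14, Z score 3.30). *Hsd17b13*, a droplet enzyme linked to human fatty liver disease, went from 546 to 1528 (1.30), with a Z score of 2.01 at the edge of the threshold, and its other probe gave 0.28. In triglyceride and cholesteryl ester synthesis *Soat1*, which esterifies cholesterol in macrophages and other cells, had signals of 22.1 and 77.0 (1.62) and 0.29 at its other probe. Of the 23 genes of the synthesis list, 15 were lower, with a median of -0.09, beside 11184 of 20165 and -0.05 over all genes.

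Among genes of lipolysis and secretion, 11 of 16 measured were higher, with a median log2 ratio of 0.39. *Lpl*, lipoprotein lipase, which macrophages also make, went from 126 to 535 (1.91) at its brightest probe, and its other probes gave 0.57 to 1.31. *Ces1d*, a carboxylesterase that mobilizes stored triglyceride for secretion, went from 265 to 762 (1.34). *Angptl4*, a secreted inhibitor of lipoprotein lipase and a PPAR target, was the gene that passed the threshold downward. It fell from 30516 to 13878, 2.50-fold (-1.32, Z score -2.01), and no gene of these lists passed downward after quantile normalization. *Lpl* and *Soat1* were higher in *Drp1*LiKO, as were most of the macrophage markers described above, and the part of macrophages in their values was not tested. Fatty acid uptake and binding had 6 genes higher and 6 lower, with none past the threshold.

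**Figure D4:**
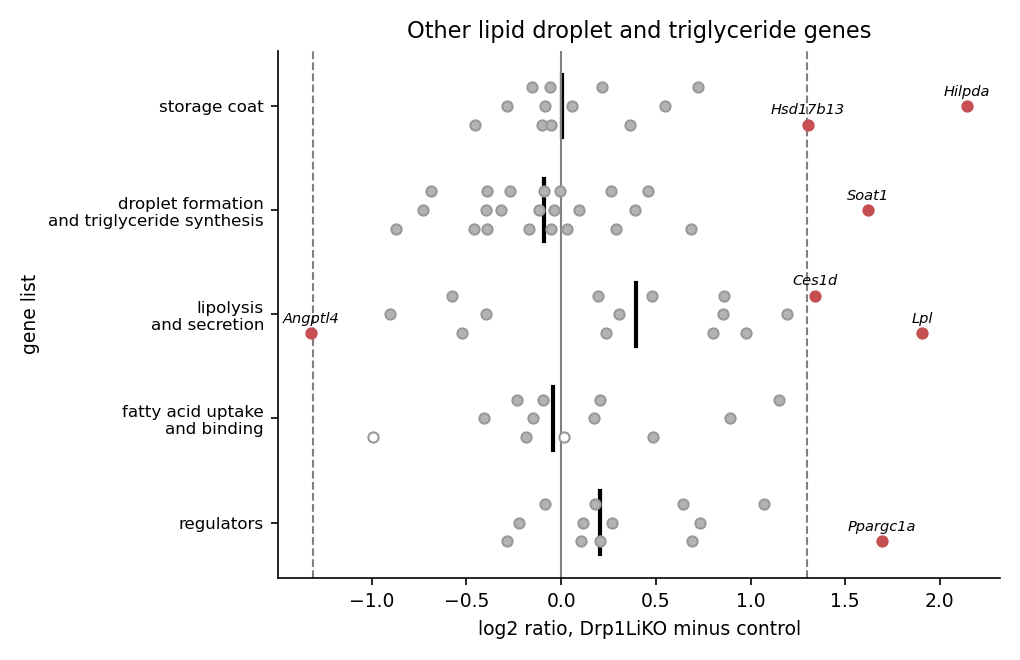
Log2 ratio of *Drp1*LiKO minus control of 78 other genes of lipid storage, grouped by role, with 1 point per gene, open points for lower or upper bounds, a black bar for the median of each list and dashed lines at Z scores of 2 and -2. Red points with names passed the threshold, 6 of them higher and *Angptl4* lower, and the medians of the lists lay between -0.09 and 0.39.

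Some genes act directly beside the members and were picked for this role after their values were seen. *Abhd5*, the activator of adipose triglyceride lipase, had a log2 ratio of 0.55 (signals 2173 and 3610), and *G0s2*, an inhibitor of the same enzyme, of 0.36 (1291 and 1885). *Mgll*, which splits the last fatty acid from glycerol, was lower, with 320 and 194 (-0.91), and its other probe gave -1.39. *Dgat1*, the second enzyme of triglyceride synthesis beside *Dgat2*, went from 832 to 784 (-0.27), and *Plin3*, a perilipin of nascent droplets, from 11461 to 21449 (0.72). None of these 5 passed the threshold.

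**Figure D5:**
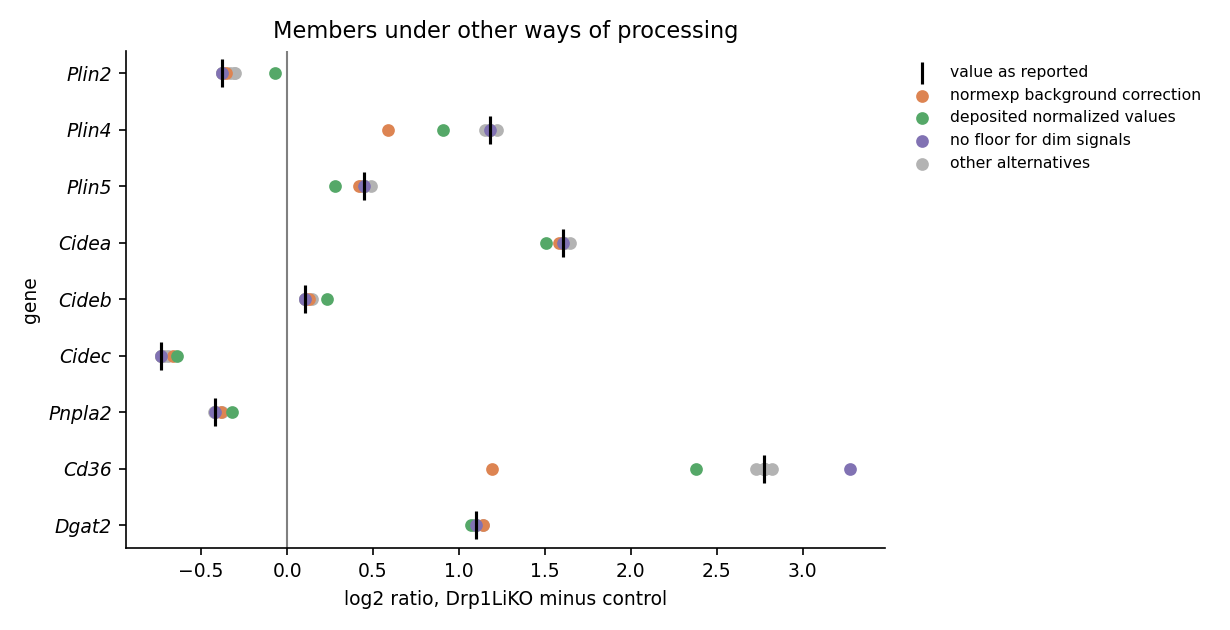
Log2 ratio of *Drp1*LiKO minus control of 9 genes as reported (black bar) and under each of the other ways of processing (points), with colors for the normexp correction, the deposited normalized values and the analysis with no floor for dim signals. Each gene kept its sign under all of them, although changes of filter, floor or Z score leave the ratio of a gene measured on both arrays unchanged. *Cd36* and *Plin4*, the dimmest in control, spread most.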

How the data were processed

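RNA of control and *Drp1*LiKO primary hepatocytes was labelled with Cy3 and hybridized to Agilent mouse 60-mer arrays, 1 per genotype. The authors deposited the scanner output, which gives the intensity of each spot raw and after background correction by the scanner software (the processed signal), and a table of intensities normalized between the arrays by a method that the sources used here do not name. Feature Extraction is version 9.5.1.1 in the submitters' processing notes and 10.7.1.1 in the file headers.

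From the processed signals, taken without control spots or spots marked as outliers, the mean log2 signal of each probe was computed and scaled to the array's 75th percentile. The comparison held the 30275 probes that stood well above background on either array. A dimmer signal was set to the lowest signal of its array that stood well above background, and such ratios are bounds. No spot was saturated. The Z score was taken over the kept probes (SD of the log2 ratio 0.65). A gene was its brightest probe. Technical noise came from 300 probes printed 10 times, whose median SD between spots was 0.04 in both arrays on the log2 scale. Genes of the wider lists were named if past the Z score threshold, with *Ppara*, *Pparg* and *Srebf1* added. Of the marker lists, the undetected genes and some of the others were named, which were not always the brightest. Other genes named were chosen after their values were seen. The members and lists were chosen with earlier results of these data known. Gene names come from the array files and can be old. A total of 12 alternatives were tried, with normexp from limma 3.58.1 in R 4.3.3 and the rest in Python 3.11.15 with pandas 2.3.3 and numpy 2.4.6. The steps were tested on a simulated copy of the control array with large changes planted in genes that were not dim. Every probe counted as well above background there, so floors, bounds and smaller changes, such as those of most members, were not tested. The number of arrays, 1 per genotype, limits the precision. No test was made.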

Additional observations from a re-analysis of the deposited data

How the results depend on the processing

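The 9 members with a ratio kept its sign under every alternative tried for them. For members measured on both arrays, a change of filter, floor or Z score left the ratio as it was, so the sign could not change there. Of the 2 members past the Z score threshold upward, *Cd36* stayed past it in all 11 alternatives that give it a value, whereas *Cidea* fell short (Z score 1.74) with no floor for dim signals, which left 1 member. With no filter on dim probes, and with a robust Z score, 4 members passed, *Plin4* and *Dgat2* being the added ones. Their ratios were unchanged there, and the share of all genes past the threshold under these settings is not given here. No member passed downward under any alternative. The median log2 ratio of the members was 0.60 with no floor, where *Lipe*, at 0.76, enters at its unfloored value, and it was 0.27 over the members measured on both arrays, an alternative chosen after seeing the data.

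Of the wider lists, the number of genes past the threshold upward was 11 with normexp, 13 with no filter, 3 with no floor, 17 with a robust Z score, 11 with a Z score within bins of similar signal and 3 with the median of the probes of a gene. Downward it was 0 with quantile normalization, 0 with no floor, 4 with a robust Z score and 2 with a Z score within bins of similar signal. The shares of 3.5% and 2.81% of all genes hold for the main Z score alone. Shares under the other settings are not given here, so these counts cannot be read as results about the lipid genes. The robust Z score and the Z score within bins used the same ratios and changed only the scale of the Z score. With no filter, 84 genes of the lists entered rather than 78, and the scale changed as well. The cause of the other shifts was not tested. No paired analysis was possible because each genotype had 1 array. Dim signals limit *Lipe*, *Plin4* and *Cd36*, the last of which is a bound.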

Other observations

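*Plin3*, *Plin4* and *Plin5* lie within 10 protein-coding genes of each other in the RefSeq order of chromosome 17, a stretch that was looked at after the values were seen. These 3 perilipin genes had log2 ratios of 0.72, 1.18 and 0.45. The 7 genes between *Plin5* and *Plin3*, which were all measured, had ratios from -0.25 (*Lrg1*) to 0.15 (*Ticam1*). Genes just outside this stretch were not all as close to no change. On the side of *Plin4*, *Chaf1a* had -0.97 and *Ubxn6* 0.10. On the side of *Plin3*, *Uhrf1* had -1.40, with a Z score of -2.13, and *Kdm4b* 0.07.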
